A study of Mus musculus with 12 samples.

Results

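The 9 genes described here encode pores and shaping proteins of the mitochondrial membranes, and they were chosen by symbol from the 55367 distinct gene symbols of the files. They are *Vdac1*, *Vdac2* and *Vdac3*, the voltage-dependent anion channels (VDAC); *Immt*, *Chchd3*, *Chchd6*, *Apoo* and *Apool*, subunits of the mitochondrial contact site and cristae organizing system (MICOS); and *Samm50*, the core of the sorting and assembly machinery (SAM). RNA-seq was performed on fibers isolated with collagenase from the extensor digitorum longus (EDL), a fast muscle of the hind limb, of mice (C57BL/6J in the study's methods, with no other genotype named for these fibers). Young fibers came from mice of 3 to 4 months, whose sex the methods do not name. The methods give the Jackson Laboratory as the source of C57BL/6J mice and a national geriatrics center for aged mice. A difference of source thus cannot be told apart from age between young and aged fibers. Fibers from aged male mice of 26 to 28 months were stained with the Ca2+ indicator Fluo-4 and parted under a fluorescence stereomicroscope into Fluo-4 abnormal fibers, with the aberrant bright staining, and Fluo-4 normal fibers. Each of the 3 groups held 4 samples, and the number of fibers behind a sample is not given in the sources used here. The values were TPM, a share of each library's transcripts corrected for their length, so that levels of different genes can be compared within a sample. Nothing says that same-numbered samples or the samples of a group came from separate mice, so p-values measure the spread between these samples.

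VDAC proteins are beta-barrel pores of the outer mitochondrial membrane, through which ATP, ADP, phosphate, creatine phosphate and Ca2+ pass. MICOS sits in the inner membrane at the crista junctions, the narrow necks that part the cristae from the rest of the inner membrane, and the protein encoded by *Immt* (mitofilin, MIC60) is its central scaffold. The SAM core inserts beta-barrels, VDAC among them, into the outer membrane and binds MICOS across the intermembrane space, which holds both membranes together at contact sites. In skeletal muscle fibers, as in other cells, the cristae carry the respiratory chain and ATP synthase.

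In the reference genome GRCm39 with GENCODE release 39, *Vdac1* lies on chr11:52251198-52280348 (+ strand), *Vdac2* on chr14:21874266-21895952 (+) and *Vdac3* on chr8:23066114-23104500 (- strand). *Immt* (chr6:71808260-71854372, +), *Chchd3* (chr6:32762883-33037211, -) and *Chchd6* (chr6:89360126-89572640, -) share a chromosome without being neighbors. *Apoo* (chrX:93410593-93460703, +) and *Apool* (chrX:111221021-111283446, +) are both on the X chromosome, and *Samm50* is on chr15:84076416-84101477 (+). The coding sequences of the VDAC genes are 852 bases each. They are identical at 70.4% of aligned bases between *Vdac1* and *Vdac2*, at 66.7% between *Vdac1* and *Vdac3* and at 72.7% between *Vdac2* and *Vdac3*, whereas *Chchd3* and *Chchd6* share 61.0% and *Apoo* and *Apool* 55.8%. Reads of these paralogs can therefore be told apart over most of their length.

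The promoters of *Vdac1*, *Immt* and *Chchd3* hold the same 7 letters, CCGGAAG, a motif bound by GABP (NRF-2), a factor known for driving nuclear genes of mitochondrial proteins. They are shown with the promoters of *Apoo* and *Apool*, which like *Chchd3* passed as lower in Fluo-4 abnormal than in Fluo-4 normal fibers. Each line gives the 120 bases before the canonical transcript start of GENCODE, 5′ to 3′ on the gene's strand. Capitals mark CCGGAAG and GGGCGG, the motif of Sp1. The last 8 bases of the *Vdac1* line lie in an exon of another of its transcripts.
Vdac1 promoter, chr11:52251567-52251686, + strand: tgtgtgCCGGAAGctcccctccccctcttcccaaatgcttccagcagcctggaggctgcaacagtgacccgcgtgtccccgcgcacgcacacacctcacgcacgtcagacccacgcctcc
Immt promoter, chr6:71808140-71808259, + strand: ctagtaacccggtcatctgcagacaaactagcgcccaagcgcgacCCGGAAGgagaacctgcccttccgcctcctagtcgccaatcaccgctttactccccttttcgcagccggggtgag
Chchd3 promoter, chr6:33037212-33037331, - strand: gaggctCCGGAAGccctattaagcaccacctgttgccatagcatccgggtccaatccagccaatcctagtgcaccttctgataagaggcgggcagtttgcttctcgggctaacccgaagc
Apoo promoter, chrX:93410473-93410592, + strand: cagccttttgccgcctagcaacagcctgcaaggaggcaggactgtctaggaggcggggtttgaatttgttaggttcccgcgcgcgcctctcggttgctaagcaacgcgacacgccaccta
Apool promoter, chrX:111220901-111221020, + strand: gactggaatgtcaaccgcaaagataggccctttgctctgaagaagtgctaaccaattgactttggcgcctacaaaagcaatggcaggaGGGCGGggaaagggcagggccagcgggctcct
Both strands were searched over 300 bases, from 250 before the start to 50 from it on. CCGGAAG began at base -114 in *Vdac1*, -75 in *Immt* and -114 in *Chchd3*. It was in 3 of the 9 genes and in 10.3% of all 21580 promoters of that length. GGGCGG was in 4 of the 9 (*Vdac2*, *Apoo*, *Apool* and *Samm50*) and in 42.6% of all promoters. For *Vdac2* and *Vdac3*, all 120 bases before the canonical start lie in exons of other transcripts of the same gene. None of the 9 windows held GCGCATGCG (NRF1, 2.45% of all promoters), TNAAGGTCA (ERR, 1.25%) or AAGATGGCG (YY1, 1.33%). These matches describe letters, and binding was not measured.

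Near-identical copies elsewhere in the genome limit what can be assigned to *Apoo* and *Vdac3*. The processed pseudogene *Apoo-ps* (chr13:107550491-107551267) matched the *Apoo* transcript at 99.7% of 777 bases with 2 substitutions, and 0 of them lay in the 597 coding bases. The first 60 coding bases of *Apoo* (start codon in capitals) are thus the same letters as those at chr13:107551178-107551237 on the - strand.
Apoo and Apoo-ps: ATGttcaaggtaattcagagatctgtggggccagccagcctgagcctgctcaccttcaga
*Vdac3-ps1* (chr13:18204902-18206214) matched *Vdac3* at 99.5% of 1313 bases with 7 substitutions, 4 of them among the 852 coding bases. They were T21C, T237C, G404A and T445G, with positions counted from 1 at the A of the start codon and the base of *Vdac3* first. The stretch of 31 bases around T237C is shown with the base that differs in capitals.
Vdac3: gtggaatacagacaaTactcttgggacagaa
Vdac3-ps1, chr13:18205927-18205957, - strand: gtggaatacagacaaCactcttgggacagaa
Within the matched stretch, which is 85.0% of the *Apoo* and 92.5% of the *Vdac3* transcript, a read that covers no substitution, coding or not, fits gene and copy alike.

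Several facts of the libraries bear on all 9 genes. Mitochondrially-encoded transcripts took 7.35% to 8.01% of the TPM in young, 8.75% to 10.9% in Fluo-4 normal and 4.75% to 6.92% in Fluo-4 abnormal fibers. *Myh4*, the myosin of the fastest fibers, made 96.9% to 98.6% of the adult myosin heavy chain TPM in young, 93.7% to 99.2% in Fluo-4 normal and 98.9% to 99.7% in Fluo-4 abnormal fibers. Of 12 myofiber markers, *Myh4* alone passed between the aged groups (higher in abnormal fibers). The 8 lists of other cell types had summed levels from 0.773 TPM (Schwann cells, young) to 482 TPM (erythroid, Fluo-4 normal). The erythroid sum was 33.1 to 121 TPM in young, 119 to 482 in Fluo-4 normal and 44.4 to 236 in Fluo-4 abnormal fibers. No erythroid marker that was tested passed in any comparison. *Adipoq*, *Plin1*, *Cidec* and *Lep* of adipocytes were at 0 in all 12 samples. The remaining adipocyte marker, *Fabp4*, was at 15.4 to 28.6 TPM in young, 32.7 to 109 in Fluo-4 normal and 8.28 to 64.4 in Fluo-4 abnormal fibers. It did not pass in any comparison. Among these lists *Cd3e* passed higher in abnormal than in normal fibers, *Cd3e*, *Lyz2*, *Mbp* and *Sox10* in abnormal than in young fibers and *Lyz2* in normal than in young fibers. The median log2 change of all 14430 genes tested was 0.10 between abnormal and normal fibers, and 0.20 over the 5994 genes with a mean of at least 5 TPM. TMM-type scaling sets it to 0.00, so a gene listed at the same TPM in both aged groups would lie below the typical gene.

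The 9 genes differed widely in level. In young fibers *Vdac1* was the highest with 987 ± 28.6 TPM (SD, n = 4), followed by *Vdac3* with 695 ± 12.9. *Vdac2* (242 ± 2.37) and *Chchd3* (232 ± 11.3) came next and overlapped, as did *Apoo* (157 ± 9.06) and *Immt* (152 ± 5.31). *Samm50* (68.5 ± 3.38), *Apool* (39.9 ± 3.47) and *Chchd6* (6.31 ± 1.73) followed without overlap. Within a group, the coefficient of variation ranged from 0.979% to 9.30% for the 8 genes other than *Chchd6*, and from 19.5% to 34.9% for *Chchd6*.

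**Figure D1:**
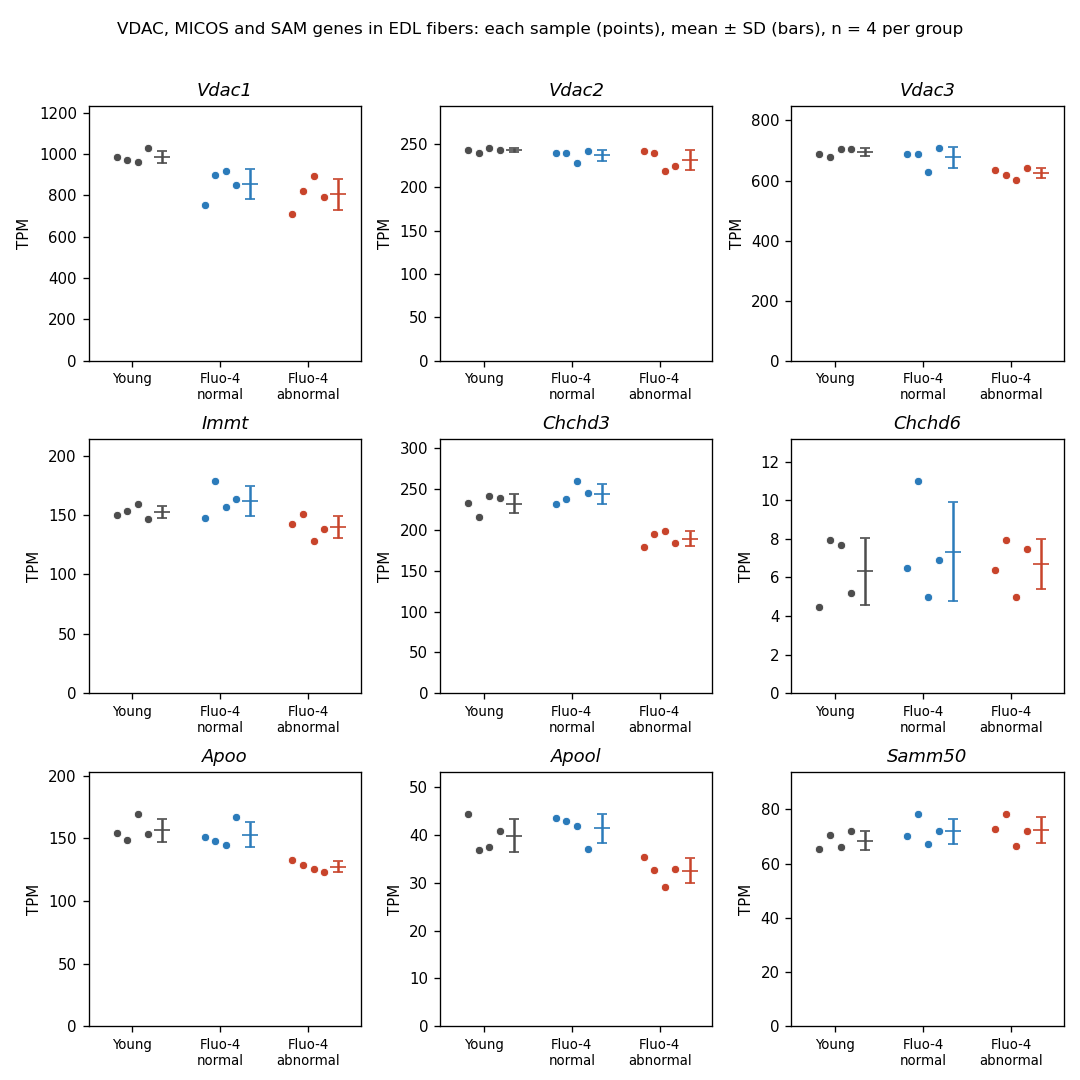
TPM (vertical axes, from 0) of each gene in the 4 young, 4 Fluo-4 normal and 4 Fluo-4 abnormal samples (points, replicates 1 to 4 from left to right), with the mean and SD beside them. *Chchd3*, *Apoo* and *Apool* lie lower in all 4 abnormal samples than in any other, whereas *Vdac1* is lower than in young fibers in both aged groups.

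Between the aged groups, 3 of the 9 genes passed, all lower in Fluo-4 abnormal fibers and all of MICOS. The MICOS genes *Immt* and *Chchd6*, the 3 VDAC genes and *Samm50* did not pass, and the difference between the sets was not tested. The mean of *Chchd3* fell by 22.2%, that of *Apoo* fell by 16.6% and that of *Apool* fell by 21.3%. Over all genes tested, 1.99% passed lower and 7.36% passed higher. Of the 9 genes, 8 had a lower and 1 a higher fitted value, while 29.4% of all genes had a lower one, and the median log2 change was -0.12 against 0.10 for all genes. An unadjusted p under 0.05 was found for 4 of the 9 genes and for 25.6% of all genes. The 4 abnormal samples lay below all normal samples for 3 of the 9 genes, as they did for 2.54% of all genes. These shares include many genes of low level. With a filter of 5 TPM, the same 3 of the 9 genes passed lower, beside 4.58% of the 6348 genes left. Of those 6348 genes, 26.9% passed in either direction. The 9 genes were chosen with earlier results of these data known, so these counts are not a test. In a library of more than 1 fiber, a smaller share of fibers with much of a transcript and less of it per fiber cannot be told apart.

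*Chchd3* encodes MIC19, a subunit that binds both MIC60 and the SAM core and so links the membranes. It was listed at 232.4, 215.8, 241.1 and 238.2 TPM in the young samples, at 230.9, 237.4, 259.2 and 245.0 in the Fluo-4 normal samples and at 179.1, 194.9, 198.7 and 184.1 in the Fluo-4 abnormal samples. All abnormal samples were below all of the other 8. The log2 change of abnormal against normal fibers was -0.36 (SE 0.06, 95% interval -0.49 to -0.23, adjusted p = 0.00405). Against young fibers it was -0.29 (SE 0.06, adjusted p = 0.0112), and between normal and young fibers the difference was 0.07 (95% interval -0.06 to 0.20, adjusted p = 0.697). With the *Myh4* share as a covariate, the change between the aged groups was -0.31 with an adjusted p of 0.0563.

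*Apoo* and *Apool* encode MIC26 and MIC27, related subunits of the part of MICOS that binds cardiolipin, the lipid of the inner membrane. *Apoo* was at 154.4, 148.4, 169.5 and 153.9 TPM in young fibers, at 151.4, 148.2, 144.6 and 167.2 in Fluo-4 normal fibers and at 132.5, 129.1, 125.7 and 122.9 in Fluo-4 abnormal fibers. The abnormal samples again did not reach any of the other 8. Its log2 change was -0.26 (SE 0.06, adjusted p = 0.0238) against normal fibers and -0.29 (SE 0.06, adjusted p = 0.0136) against young fibers. *Apool* was at 44.4, 36.8, 37.5 and 40.8 TPM in young fibers, at 43.6, 43.0, 41.8 and 37.1 in Fluo-4 normal fibers and at 35.5, 32.6, 29.2 and 32.9 in Fluo-4 abnormal fibers. Its highest abnormal sample lay just under the lowest of the other groups. The log2 change was -0.34 (SE 0.09, adjusted p = 0.0272) against normal fibers and -0.28 (SE 0.09, adjusted p = 0.0589) against young fibers, so that the second did not pass. The ratio of *Apoo* to *Apool* was 3.95 ± 0.44 in young, 3.72 ± 0.53 in Fluo-4 normal and 3.93 ± 0.27 in Fluo-4 abnormal fibers, and overlapped between all groups. Both calls between the aged groups depended on single samples. *Apoo* no longer passed without abnormal replicate 2, 3 or 4 or normal replicate 4 (adjusted p 0.0553 to 0.0626), nor *Apool* without normal replicate 1 or 2 or abnormal replicate 2, 3 or 4 (0.0525 to 0.0755).

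The pseudogene *Apoo-ps* was listed higher than *Apoo* itself, at 324 ± 10.6 TPM in young, 309 ± 15.9 in Fluo-4 normal and 260 ± 22.3 in Fluo-4 abnormal fibers (n = 4 each). With their values summed, *Apoo* and its copy had a log2 change of -0.26 (SE 0.06, adjusted p = 0.0198) between abnormal and normal fibers and -0.31 (SE 0.06, adjusted p = 0.0074) between abnormal and young fibers. The abnormal samples stayed below all others. TPM divides reads by length and the copies differ in length, so the sum still depends in part on how reads were split. The level of *Apoo* relative to other genes is thus uncertain. The size of the difference between the aged groups was the same with and without the copy. Most reads fit both, so this likeness cannot part the gene from its copy.

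*Immt* and *Chchd6* complete the MICOS genes. *Immt* was at 150.0, 153.7, 159.1 and 146.8 TPM in young fibers, at 147.8, 178.4, 157.1 and 163.7 in Fluo-4 normal fibers and at 142.7, 150.9, 128.2 and 138.6 in Fluo-4 abnormal fibers. The groups overlapped by abnormal replicate 2, and the log2 difference between the aged groups was -0.20 (SE 0.07, 95% interval -0.36 to -0.05, adjusted p = 0.0842). It passed with TMM-type scaling (-0.43, adjusted p = 0.00212) and with scaling without the mitochondrially-encoded genes (-0.27, adjusted p = 0.0482). *Chchd6*, which encodes MIC25, a relative of MIC19, was at 4.48, 7.92, 7.66 and 5.20 TPM in young fibers, at 6.50, 11.0, 4.99 and 6.89 in Fluo-4 normal fibers and at 6.38, 7.92, 4.99 and 7.49 in Fluo-4 abnormal fibers. Its groups overlapped throughout, and its interval of -0.57 to 0.40 between the aged groups includes the changes of all other MICOS genes. *Chchd3* was on average 39.1 times as high as *Chchd6* in young, 36.2 times in Fluo-4 normal and 29.3 times in Fluo-4 abnormal fibers, with overlapping ranges.

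*Vdac1*, the most abundant of the 9 genes and the channel isoform known for contacts with the sarcoplasmic reticulum, was listed below the young level in all samples of both aged groups. It was at 987.7, 971.8, 961.9 and 1027 TPM in young fibers, at 753.4, 897.2, 918.9 and 848.5 in Fluo-4 normal fibers and at 711.4, 819.3, 892.6 and 793.1 in Fluo-4 abnormal fibers. All 8 aged samples were below all young samples, and replicate 1 was the lowest and replicate 3 the highest in both aged groups. The log2 change of abnormal against young fibers was -0.30 (SE 0.08, adjusted p = 0.0348), and the mean fell by 18.5%, from 987 to 804 TPM. For normal against young fibers the difference was -0.21 (SE 0.08, 95% interval -0.38 to -0.04, adjusted p = 0.262), and for abnormal against normal fibers -0.09 (SE 0.08, 95% interval -0.26 to 0.08, adjusted p = 0.523). The call against young fibers was lost when any 1 of the 4 young samples or abnormal replicate 1, 2 or 4 was left out (adjusted p 0.0657 to 0.102), with all annotated genes tested (adjusted p = 0.052) and with the *Myh4* share as a covariate (-0.22, adjusted p = 0.102).

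*Vdac2* and *Vdac3* did not pass in any comparison. *Vdac2*, known for holding BAK at the outer membrane, was at 242.7, 239.1, 244.7 and 243.3 TPM in young fibers, at 239.6, 239.1, 227.4 and 241.2 in Fluo-4 normal fibers and at 242.2, 238.9, 218.5 and 224.3 in Fluo-4 abnormal fibers. The difference between the aged groups was -0.04 (95% interval -0.15 to 0.08, adjusted p = 0.697). The values of the channels depend on the scaling. With TMM-type scaling they were -0.32 for *Vdac1* (adjusted p = 0.0575), -0.26 for *Vdac2* (0.0973) and -0.34 for *Vdac3* (0.052), so the intervals given hold for TPM as deposited. *Vdac3* was at 688.5, 679.9, 706.4 and 705.1 TPM in young fibers, at 688.3, 686.6, 628.1 and 706.8 in Fluo-4 normal fibers and at 635.4, 618.7, 602.7 and 641.6 in Fluo-4 abnormal fibers. Normal replicate 3 lay among the abnormal samples. The *Vdac3* difference between the aged groups was -0.12 (SE 0.06, 95% interval -0.24 to 0.00, adjusted p = 0.21). Within each of the 4 same-numbered pairs the abnormal *Vdac3* sample was lower, as it was for *Vdac1*, *Immt*, *Chchd3*, *Apoo* and *Apool*. It was lower in 3 pairs for *Vdac2* and in 2 for *Chchd6* and *Samm50*. Nothing says that a pair came from 1 mouse. How common such an order is among all genes was not counted, so nothing is concluded from it. Between abnormal and young fibers the *Vdac3* samples did not overlap, with a difference of -0.15 (SE 0.06, adjusted p = 0.108). Its copies *Vdac3-ps1* (33.8 to 44.9 TPM) and *Gm7591* (1.08 to 2.75 TPM) were small beside it, and the difference between the aged groups was -0.11 (adjusted p = 0.227) with them added.

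*Samm50*, unlike *Chchd3*, which it binds as a protein, did not pass in any comparison. It was at 65.3, 70.6, 65.9 and 72.1 TPM in young fibers, at 70.3, 78.3, 67.4 and 72.0 in Fluo-4 normal fibers and at 72.7, 78.3, 66.4 and 72.1 in Fluo-4 abnormal fibers. The aged groups covered nearly the same range, with a log2 difference of 0.01 (SE 0.07, 95% interval -0.14 to 0.16, adjusted p = 0.97). This sign depends on the scaling, since the value was -0.22 (adjusted p = 0.174) with TMM-type scaling and -0.05 without the mitochondrially-encoded genes in the total.

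Against young fibers, 3 of the 9 genes passed lower in Fluo-4 abnormal fibers (*Vdac1*, *Chchd3* and *Apoo*), while 2.41% of all genes passed lower and 6.09% higher. The median of the 9 log2 changes was -0.15, beside 0.07 for all genes, and 5 of the 9 were below an unadjusted p of 0.05, as were 23.0% of all genes. The groups did not overlap, with the abnormal samples lower, for 5 of the 9 genes (*Vdac1*, *Vdac3*, *Chchd3*, *Apoo* and *Apool*) and for 3.95% of all genes. With a filter of 5 TPM, *Apool* also passed lower. Of the 6348 genes left by that filter, 5.97% passed lower and 21.1% passed in either direction. Between Fluo-4 normal and young fibers, 0 of the 9 genes passed with limma, and 1.15% of all genes passed in either direction. An unadjusted p under 0.05 was found for 1 of the 9 (*Vdac1*) and for 12.9% of all genes, a like share. *Vdac1* was also the 1 gene whose normal samples all lay below the young samples, which held for 4.95% of all genes. The median of the 9 was 0.05 beside -0.02 for all genes. The comparisons share samples, so their values stand side by side and are not independent.

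**Figure D2:**
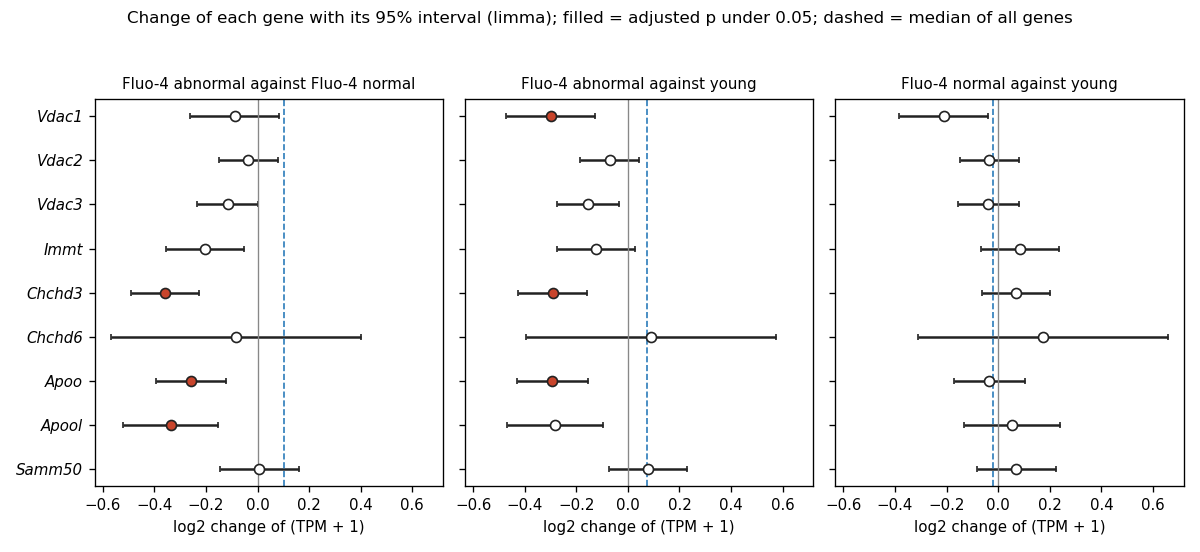
Fitted log2 change of TPM + 1 (horizontal axes) of the 9 genes with 95% intervals in the 3 comparisons, filled where the adjusted p was under 0.05, with a dashed line at the median of all 14430 genes. *Chchd3*, *Apoo* and *Apool* are filled between the aged groups, *Vdac1*, *Chchd3* and *Apoo* between abnormal and young fibers, and 0 genes between normal and young fibers.

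Summed over each set, the channels and the 5 MICOS genes are given by sample, with no test made over these sums. The 3 VDAC genes summed to 1925 ± 36.1 TPM in young (1891 to 1975), 1769 ± 61.7 in Fluo-4 normal (1681 to 1823) and 1660 ± 52.4 in Fluo-4 abnormal fibers (1589 to 1714). The 5 MICOS genes summed to 587 ± 21.5 (562.7 to 615.0), 606 ± 18.3 (580.2 to 619.8) and 496 ± 13.7 TPM (486.0 to 515.4). The VDAC sum of both aged groups thus lay below all young samples, and the MICOS sum of the abnormal samples lay below that of all others. The ratio of VDAC to MICOS was 3.28 ± 0.12 in young fibers (3.11 to 3.38), 2.92 ± 0.02 in Fluo-4 normal fibers (2.90 to 2.95) and 3.35 ± 0.15 in Fluo-4 abnormal fibers (3.20 to 3.52). The normal samples were below all 8 others, and the young and abnormal samples overlapped. This order depended on which genes entered the MICOS sum. With *Micos10* and *Micos13* added, the ratio was 1.42 ± 0.02 in young, 1.33 ± 0.13 in Fluo-4 normal and 1.54 ± 0.14 in Fluo-4 abnormal fibers, and all groups overlapped. With *Apoo-ps* added, it was 2.11 ± 0.06, 1.93 ± 0.04 and 2.20 ± 0.15, and the normal samples were again below all others. A ratio within a sample does not depend on the scaling of that sample. *Vdac1* made 51.3% ± 0.72 of the VDAC sum in young, 48.3% ± 2.96 in Fluo-4 normal and 48.4% ± 3.02 in Fluo-4 abnormal fibers, with overlapping ranges.

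**Figure D3:**
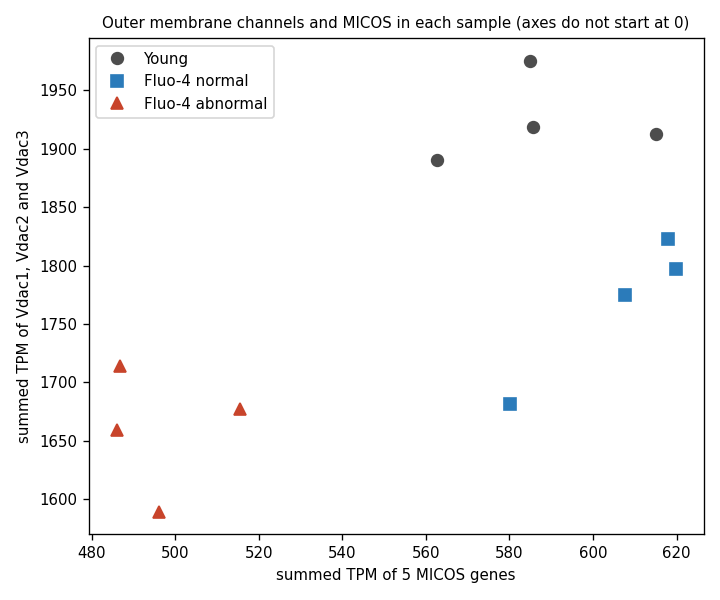
Summed TPM of *Vdac1*, *Vdac2* and *Vdac3* (vertical axis) against summed TPM of *Immt*, *Chchd3*, *Chchd6*, *Apoo* and *Apool* (horizontal axis), 1 point per sample, with axes that do not start at 0. The Fluo-4 abnormal samples sit at the left, at 486.0 to 515.4 TPM of MICOS, and the young samples at the top, at 1891 to 1975 TPM of VDAC.

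Over the 12 samples, the levels of *Vdac3* and *Apoo* (Pearson r 0.88 of log2 values) and of *Chchd3* and *Apoo* (0.82) were the most alike among the 9 genes, and those of *Vdac1* and *Samm50* the least (-0.38). The median correlation with the other 8 genes was 0.65 for *Apoo*, 0.61 for *Chchd3*, 0.60 for *Vdac3*, 0.58 for *Apool* and *Immt*, 0.43 for *Vdac2*, 0.26 for *Vdac1*, 0.11 for *Chchd6* and -0.07 for *Samm50*. All pairs share the libraries and the group differences, so these values only describe the samples. Among 5993 other genes with a mean of at least 5 TPM, those most like *Immt* were *Uqcrc1* (0.94), *Slc47a1* (0.93), *Ndufv1* (0.92), *Sdha* (0.91) and *Ndufs1* (0.91). Those most like *Vdac1* were *Kcna7* (0.92), *Letm1*, *Filip1l*, *Klhdc3* and *Cdc16* (each 0.89).

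The other genes of the same membranes were taken as 6 lists, 83 genes in all, of which 82 were tested. Between abnormal and normal fibers 13 of them passed lower and 2 higher, beside 1.99% and 7.36% of all genes tested. The lists were chosen with earlier results of these data known, so these counts are not a test of the lists. Of the 6 other genes of MICOS and of the SAM and metaxin group, 1 passed. *Mtx2*, which encodes a metaxin of the SAM complex, fell from 25.1 ± 1.76 to 18.3 ± 4.03 TPM (log2 change -0.46, adjusted p = 0.038). Its young samples, at 19.1 ± 0.90 TPM, were near the abnormal ones (-0.08, adjusted p = 0.753) and below all normal ones (0.38 for normal against young fibers, adjusted p = 0.187). *Micos10*, the subunit MIC10 that bends the crista neck, was at 552 ± 83.0 TPM in normal and 438 ± 49.5 TPM in abnormal fibers (-0.33, SE 0.10, adjusted p = 0.0657). *Micos13* (-0.23, adjusted p = 0.182), *Dnajc11* (-0.12, 0.583), *Mtx1* (0.18, 0.345) and *Mtx3* (0.01, 0.925) did not pass either.

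Proteins that work with VDAC were a list of 17 genes, of which *Ckmt1* was at 0 in all samples and 16 were tested. Of these, 4 passed, all lower in abnormal fibers, and the median of the list was -0.01. *Ckmt2*, the mitochondrial creatine kinase that joins VDAC to the adenine nucleotide carrier, fell from 1164 ± 172 TPM in normal fibers (1074 to 1421) to 319 ± 130 TPM in abnormal fibers (183.0 to 495.7), a log2 change of -1.94 (SE 0.21, adjusted p = 0.000494). *Ppif*, cyclophilin D of the permeability transition pore, fell from 30.9 ± 2.96 to 16.5 ± 2.34 TPM (-0.87, adjusted p = 0.000713). *Slc25a4*, the muscle form of the adenine nucleotide carrier, fell from 3416 ± 96.6 to 2372 ± 114 TPM (-0.53, adjusted p = 0.00073). The phosphate carrier gene *Slc25a3* was the other gene that fell (-0.41, adjusted p = 0.00909). The changes of *Ckmt2*, *Ppif* and *Slc25a4* had 95% intervals below that of *Vdac1*, but the difference between genes was not tested.

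Subunits of ATP synthase that join it into dimers, which line the crista rims, were 5 genes in a list of 6, and all 5 passed lower. The other gene, *Atpif1*, encodes an inhibitor of the enzyme and did not pass (-0.13, adjusted p = 0.552). The list median was -0.45. *Atp5mpl* fell by 32.5%, *Atp5l* fell by 25.1% and *Atp5j2* fell by 27.1% (log2 changes -0.57, -0.42 and -0.46, adjusted p = 0.00556, 0.0135 and 0.0187). Of 14 genes for inner membrane shape and protein quality, 1 passed. It was *Phb*, a prohibitin that forms a ring scaffold in the inner membrane, at 107 ± 10.2 TPM in normal and 76.6 ± 7.42 TPM in abnormal fibers (-0.48, adjusted p = 0.00405). The other prohibitin gene, *Phb2*, did not pass, at 105 ± 5.80 TPM in normal and 103 ± 4.83 TPM in abnormal fibers (-0.02, adjusted p = 0.915). *Chchd10*, a relative of *Chchd3* (-0.23, adjusted p = 0.0509), and the protease gene *Oma1* (-0.20, 0.308) did not pass. *Opa1*, the dynamin-like fusion protein of the inner membrane, was at 19.3 ± 4.83 TPM in normal and 17.5 ± 2.91 TPM in abnormal fibers and is named for its role, outside the rule for named genes.

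Of 13 genes of cardiolipin synthesis and transport, 1 passed, higher. It was *Pgs1*, the enzyme of an early step of synthesis, at 12.0 TPM in normal and 17.0 TPM in abnormal fibers (0.45, adjusted p = 0.0277), while *Ptpmt1* (-0.24, 0.0732) and *Taz* (0.27, 0.0914) did not pass. Of 27 other genes of the outer membrane 2 passed lower and 1 higher, with a list median of 0.00. They were *Mfn1*, a mitofusin (-0.45, adjusted p = 0.0452), *Cpt1b*, the carnitine palmitoyltransferase of muscle (-0.32, 0.0361), and *Rmdn3*, a tether to the endoplasmic reticulum (0.65, 0.0346). The other mitofusin gene, *Mfn2*, did not pass (0.15, adjusted p = 0.502).

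**Figure D4:**
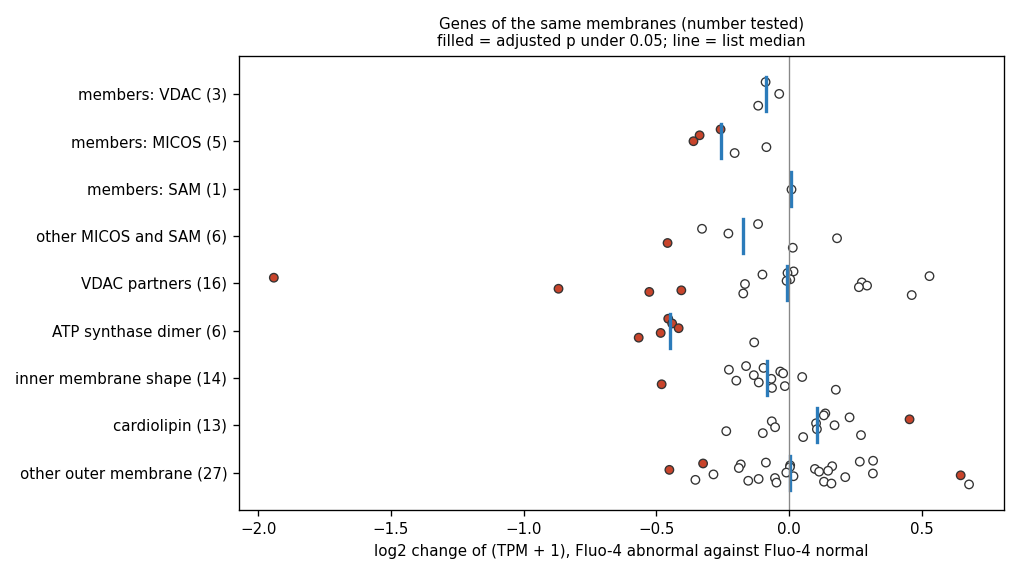
Fitted log2 change of TPM + 1 between Fluo-4 abnormal and Fluo-4 normal fibers (horizontal axis) of the 9 genes and of the tested genes of 6 related lists, 1 point per gene, filled where the adjusted p was under 0.05, with a line at each list's median. The ATP synthase list has its median at -0.45 and the other outer membrane genes at 0.00.

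The calls between the aged groups depended on whether the *Myh4* share entered the fit, and their sizes on the scaling. With the *Myh4* share as a covariate 0 of the 9 genes passed, although the changes of *Chchd3*, *Apoo* and *Apool* were -0.31, -0.30 and -0.29, and 108 genes in all still passed lower. With TMM-type scaling the 3 calls held with larger changes (-0.59, -0.48 and -0.56), and *Immt* was added to them. Of all genes, 287 of the 1349 calls were lower as reported and 545 of 855 with TMM-type scaling. Against young fibers these numbers were 348 of 1227 and 692 of 1142.

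**Figure D5:**
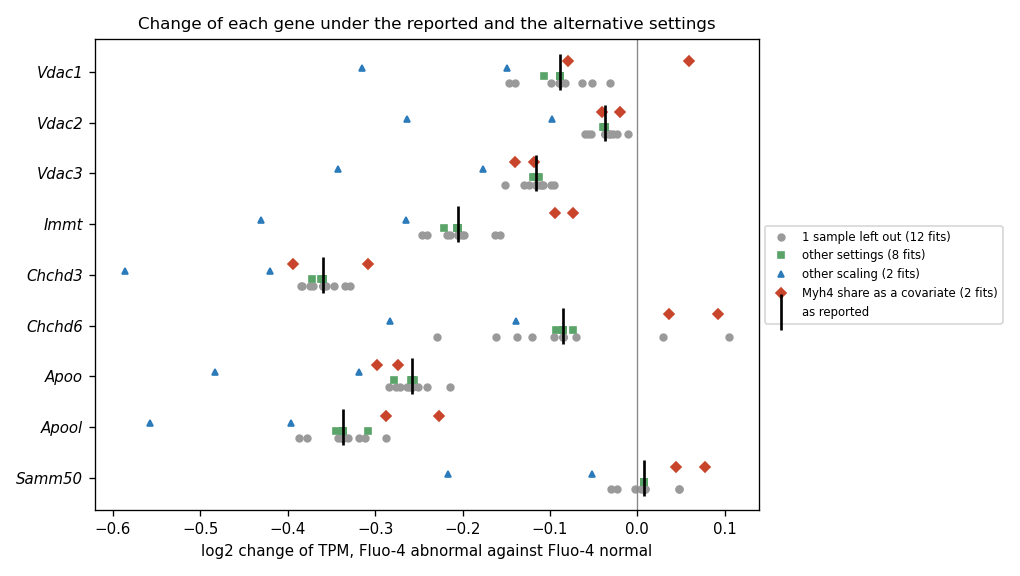
Log2 change of each gene between Fluo-4 abnormal and Fluo-4 normal fibers (horizontal axis) as reported (black bars) and under 24 other settings (colored points). *Chchd3*, *Apoo* and *Apool* stay below 0 at every setting, while *Vdac1*, *Chchd6* and *Samm50* cross 0.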

How the data were processed

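RNA-seq of 12 samples of isolated EDL fibers was used. The authors made libraries from 10 ng of RNA with SMART-Seq v4, used DRAGEN 4.3 for alignment to GRCm39, and deposited TPM values for 55487 entries per sample. The annotation release is not given in the sources used here, and counts were not used, so depth per sample is unknown. Groups and replicate numbers came from the labels. The 9 genes and all lists were chosen with earlier results of these data known.

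Symbols were matched to GENCODE vM39 and RefSeq (49848 to GENCODE, 2527 to a RefSeq symbol, 118 to a synonym, 2874 to none). Protein-coding and mitochondrially-encoded genes with a mean of at least 0.02 TPM in 1 group were tested (14430). limma 3.58.1 (R 4.3.3) was fitted to log2(TPM + 1) over all 3 groups, letting the variance follow mean expression, and p-values were adjusted by Benjamini-Hochberg over all genes. A fold on this scale understates changes of low genes such as *Chchd6*. Of related lists, the 3 genes with the smallest p between the aged groups were named (all 6 for MICOS and SAM). *Slc25a3*, the other partner that passed, *Opa1*, *Atpif1*, *Phb2* and *Mfn2* were added after their values were seen. Copies were sought with BLAST 2.17.0 (at least 95% identity over 100 bases), and sequences were read with Python 3.11.15, pysam 0.24.0 and Biopython 1.88. Figures used matplotlib 3.10.9.

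The labels number replicates 1 to 4 in each group. Over 5994 genes, the residuals of abnormal and normal samples with the same number correlated at 0.30 to 0.44 (different numbers -0.36 to 0.23), and the block pairs them. Other settings were scaling by TMM-type factors (30% and 5% trimmed) or by the nuclear genes, a filter of 5 TPM or none, 0.1 as pseudocount, every annotated gene, 2 groups only, sample weights, the *Myh4* share, the block, both together, each sample left out and, chosen after seeing the data, copies summed and other MICOS sums for the ratio. No protein sequences were used. In SMART-Seq v4 libraries strand is not kept, so overlapping genes, *Comtd1* (140 exon bases shared with *Vdac2*) among them, cannot be separated.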

Additional observations from a re-analysis of the deposited data

Results flagged for a closer look

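*Vdac2* in Fluo-4 normal fibers had 1 sample far from the others. Replicate 3 was at 227.439 TPM, while the other samples of the group lay between 239.1 and 241.2 TPM, and its gap divided by the range of the group was 0.845, above the critical value of Dixon's test for 4 samples. It was the 1 group past this value of 27 checked (9 genes in 3 groups), and chance alone passes about 5% of groups. Replicate 3 was also the lowest *Vdac2* sample of the Fluo-4 abnormal group, at 218.5 TPM.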

How the results depend on the processing

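Of 648 comparisons of a gene's value with its value under another setting, 588 kept their direction and side of the threshold, 30 lost the call, 10 gained it and 20 reversed. The 3 genes that passed between abnormal and normal fibers became 1 with the 2 groups only, 0 with the *Myh4* share, 0 with the replicate block plus that share, and 1 to 3 with a sample left out, where fewer samples remain. It was 1 without abnormal replicate 2, 3 or 4. Against young fibers the 3 became 5 with TMM-type scaling (*Immt* and *Apool* added), 2 with all annotated genes or the *Myh4* share (*Vdac1* lost in both), 0 with the replicate block plus that share, and 2 to 4 with a sample left out. Between normal and young fibers it was 0 throughout. With the replicate block alone it was 3 between the aged groups, 4 against young fibers (*Apool*, adjusted p = 0.0432) and 0 between normal and young fibers, and same-numbered samples of aged and young fibers share only a number (correlations of 0.005 to 0.18 for abnormal and -0.08 to 0.23 for normal fibers). The all-gene calls between the aged groups ranged from 33 to 1843, against young fibers from 6 to 1712 and between normal and young fibers from 55 to 358.

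Reversed log2 values between the aged groups were 0.060 for *Vdac1* and 0.036 for *Chchd6* with the *Myh4* share, 0.092 for *Chchd6* with the block and that share, and -0.22 and -0.052 for *Samm50* with TMM-type scaling and without mitochondrially-encoded genes. With a sample left out, *Chchd6* ranged from -0.23 to 0.10 and *Samm50* from -0.030 to 0.048. For abnormal against young fibers, *Chchd6* reversed to -0.062 (TMM-type) and -0.37 (block and *Myh4* share) and ranged from -0.040 to 0.20 with a sample left out, and *Samm50* reversed to -0.095 (TMM-type). For normal against young fibers, TMM-type scaling gave 0.017 for *Apoo*, 0.018 for *Vdac2* and 0.014 for *Vdac3*, and the block and *Myh4* share gave -0.016 for *Apool*. With a sample left out, *Apoo* ranged from -0.078 to 0.0039 and *Chchd6* from -0.016 to 0.32. All of these genes had an adjusted p above 0.05 in the reported comparison. The cause was not tested. TPM without counts give no depth, so intervals from reads could not be had.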

Other observations

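Between Fluo-4 abnormal and young fibers, 2.41% of all genes passed lower and 6.09% higher. The related lists were chosen with earlier results of these data known. Of their 82 tested genes, 10 passed lower in abnormal fibers and 3 higher. *Micos10* was the MICOS gene among them, at 618 ± 35.8 TPM in young and 438 ± 49.5 TPM in abnormal fibers (log2 change -0.50, adjusted p = 0.0106). *Tomm40l*, a form of the import pore of the outer membrane (-0.69, adjusted p = 0.0051), *Mfn1* (-0.57, 0.0171), *Chchd10* (-0.32, 0.0113) and *Phb* (-0.49, 0.00322) were also lower. *Tspo*, an outer membrane protein known for cholesterol binding (0.70, 0.0306), *Maob*, a monoamine oxidase (0.70, 0.00469), and *Pgs1* (0.41, 0.0469) were higher. Between Fluo-4 normal and young fibers 1 of the 82 passed, *Maob* (log2 change 0.89, adjusted p = 0.00445), and 1.15% of all genes passed, a like share. *Tomm40l*, *Tspo* and *Maob* were named after their values were seen.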
